A study of Mus musculus with 16 samples.

Results

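The cyclin-dependent kinase inhibitors and the p53 axis were followed in mouse granulosa cells (mGCs), the somatic cells of the ovarian follicle that nurse the oocyte and make estrogen. The members are the 7 inhibitor genes Cdkn1a, Cdkn1b, Cdkn1c, Cdkn2a, Cdkn2b, Cdkn2c and Cdkn2d, together with Trp53, Mdm2 and Ccng1, and all 10 were found by symbol among the 57010 genes of both count tables. The study used RNA-seq on freshly isolated mGCs of ICR mice, 5 with sham surgery (Con-mGC) and 5 with endometrium of a donor mouse stitched to the mesentery (EM-mGC), a model of endometriosis. It also used mGCs of 6 mice of the EM model, cultured in medium with 5% fetal bovine serum. The cells were given 100 nM 14, 15-EET or PBS for 24 h, with 3 libraries in the EET group and 3 in the PBS group. A figure legend of the study gives 24 h of culture before this treatment, which the library titles do not mention. 14, 15-EET is a lipid mediator, an epoxide of arachidonic acid. Mice were bought at an age of 6 weeks, and recipient mice received 200 µg/kg 17β-estradiol every other day over 14 days and then an ovulation induction on day 30. Whether sham-operated mice received estradiol is not said, nor is it said how the cells of the 6 mice were spread over the cultured libraries. The methods call the cultured replicates paired, but do not say that equal library numbers mark the partners.

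Cyclin-dependent kinases drive the cell cycle, and their inhibitors hold it back. The CIP/KIP proteins P21, P27 and P57, from Cdkn1a, Cdkn1b and Cdkn1c, bind cyclin-kinase complexes, whereas the INK4 proteins, from Cdkn2a to Cdkn2d, bind CDK4 and CDK6 and keep them from D-type cyclins. The transcription factor p53, encoded by Trp53, turns on Cdkn1a, Mdm2 and Ccng1 after DNA damage and other stress, and MDM2 marks p53 for breakdown, so that the axis limits itself. P21 and the product p16 of Cdkn2a are common markers of senescence, and Cdkn1b is known for holding luteinizing granulosa cells out of the cycle.

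The genes lie on 7 chromosomes (GRCm39, as deposited). The INK4 genes Cdkn2a (chr4:89192708-89212890) and Cdkn2b (chr4:89224536-89229276) are neighbours on the minus strand of chromosome 4, which also holds Cdkn2c (chr4:109518073-109524386), while Cdkn2d is at chr9:21199706-21202703. The CIP/KIP genes are at chr17:29309950-29319701 (Cdkn1a), chr6:134897364-134902476 (Cdkn1b) and chr7:143012076-143014787 (Cdkn1c). Trp53 (chr11:69471185-69482699) and Ccng1 (chr11:40639379-40646138) share chromosome 11, and Mdm2 is at chr10:117524780-117546663.

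Since p53 acts through a DNA element, the promoters of the members were searched for it, and the full matches are shown. Whether the element bears on the levels of these genes was not tested. The windows run from 250 bases before to 50 bases after each RefSeq start (build GRCm38.p6), and 9 of the 10 members matched the table, with 12 windows. The element is 2 adjacent copies of the p53 decamer consensus, with at most 1 base off the consensus, and it is the same on both strands. It stood in 29 of all 32851 windows (0.0883%) and in 2 of the 12 windows of members, which were those of an upstream start of Cdkn1a and of Ccng1. A single decamer with no base off the consensus stood in 5 of the 12 windows of members and in 8.36% of all windows. The 5 were those of Cdkn1a (upstream start), Ccng1, Cdkn2d, Trp53 and Mdm2. In the lines below, 5′ to 3′ on the strand of the gene, capitals mark the element.
Cdkn1a, capitals at chr17:29090928-29090947, plus strand: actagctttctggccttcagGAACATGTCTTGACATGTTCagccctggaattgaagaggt
Ccng1, capitals at chr11:40755462-40755481, minus strand: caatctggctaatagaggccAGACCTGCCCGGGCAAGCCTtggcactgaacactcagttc
The element begins 51 bases before the upstream start of Cdkn1a and 195 bases before the start of Ccng1. A match is a stretch of letters and not a measured binding site, and elements outside these windows were not searched.

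The fresh libraries held between 14229123 and 15999234 counted reads, and the cultured libraries between 21384686 and 29482826. Mitochondrial genes took 21.85% of the reads of EM-mGC-3, 6.756% to 11.13% in the other fresh libraries, and 1.176% to 1.641% in the cultured ones. The fresh libraries had all 8 granulosa markers of a fixed list, with their summed level from 4506 to 15446 reads per 1000000 reads of the library (CPM), and also leukocyte, oocyte, endothelial and red blood cell markers. In the cultured libraries, the granulosa markers Inha, Inhba and Foxl2 were kept best. They averaged 2841, 2223 and 146 CPM in the PBS group, against 4752, 2224 and 219 CPM in the EM group. Fshr, Nr5a2 and Hsd17b1 averaged 5.16, 106 and 136 CPM in the PBS group, against 103, 791 and 507 CPM in the EM group. Cyp19a1 (aromatase) and Amh averaged 0.169 and 0.303 CPM in the PBS group, against 289 and 52.2 CPM in the EM group. In bulk RNA, fewer cells of a type and less RNA per cell cannot be told apart.

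In fresh mGCs, Cdkn1b was the most expressed inhibitor gene, and the group means of Trp53, Ccng1 and Mdm2 stood above those of all other inhibitors. Levels between genes were compared as CPM per kb of exon, scaled over all 16 libraries. In the Con group, Cdkn1b was at 29.0 ± 5.51 CPM per kb (SD, n = 5), Trp53 at 24.5 ± 3.99, Ccng1 at 20.7 ± 1.58 and Mdm2 at 13.9 ± 0.441 CPM per kb. Neither Cdkn1b and Trp53 nor Trp53 and Ccng1 differed beyond these SDs. Next came Cdkn2c at 7.73 ± 0.857, Cdkn2d at 5.95 ± 2.39, Cdkn1a at 4.96 ± 1.67 and Cdkn2b at 4.40 ± 2.73 CPM per kb, and no neighbours among these 4 differed beyond their SDs. Cdkn1c followed at 1.95 ± 0.387 CPM per kb, and Cdkn2a came last at 0.314 ± 0.214 CPM per kb, with 0 to 15 reads per fresh library. For Con-mGC-1, 0 of 15285055 reads fell on Cdkn2a, which allows a level of up to 0.196 CPM. The reads of Cdkn2a are counted over the whole gene, so p16 and ARF, which share exons, are not separated. In the EM group the order began in the same way, with Cdkn1b at 40.3 ± 18.5 and Trp53 at 24.2 ± 1.998 CPM per kb. Cdkn1a, at 9.37 ± 3.48 CPM per kb, came right after Mdm2 at 13.5 ± 1.08 CPM per kb. It did not differ beyond the SDs from Mdm2 or from the INK4 genes Cdkn2c, Cdkn2b and Cdkn2d, which came next.

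The order was another one in culture, where Cdkn1a stood first. In the PBS group it was at 114 ± 19.0 CPM per kb (SD, n = 3), followed by Ccng1 at 93.3 ± 8.42 CPM per kb, which did not differ from it beyond the SDs. Trp53 at 33.1 ± 0.578, Mdm2 at 27.9 ± 1.54 and Cdkn1b at 26.2 ± 3.55 CPM per kb came next, and Mdm2 and Cdkn1b lay within their SDs. Cdkn2b at 16.4 ± 1.09 and Cdkn2d at 15.2 ± 0.954 CPM per kb stood above Cdkn2c at 4.42 ± 0.364, Cdkn1c at 0.672 ± 0.177 and Cdkn2a at 0.489 ± 0.0736 CPM per kb, where Cdkn2b and Cdkn2d as well as Cdkn1c and Cdkn2a lay within their SDs. In the EET group Cdkn1a at 111 ± 3.22 CPM per kb and Ccng1 at 98.4 ± 6.38 CPM per kb again came first, and Cdkn1b at 31.6 ± 1.04 CPM per kb stood before Mdm2 at 29.0 ± 1.14 CPM per kb.

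**Figure D1:**
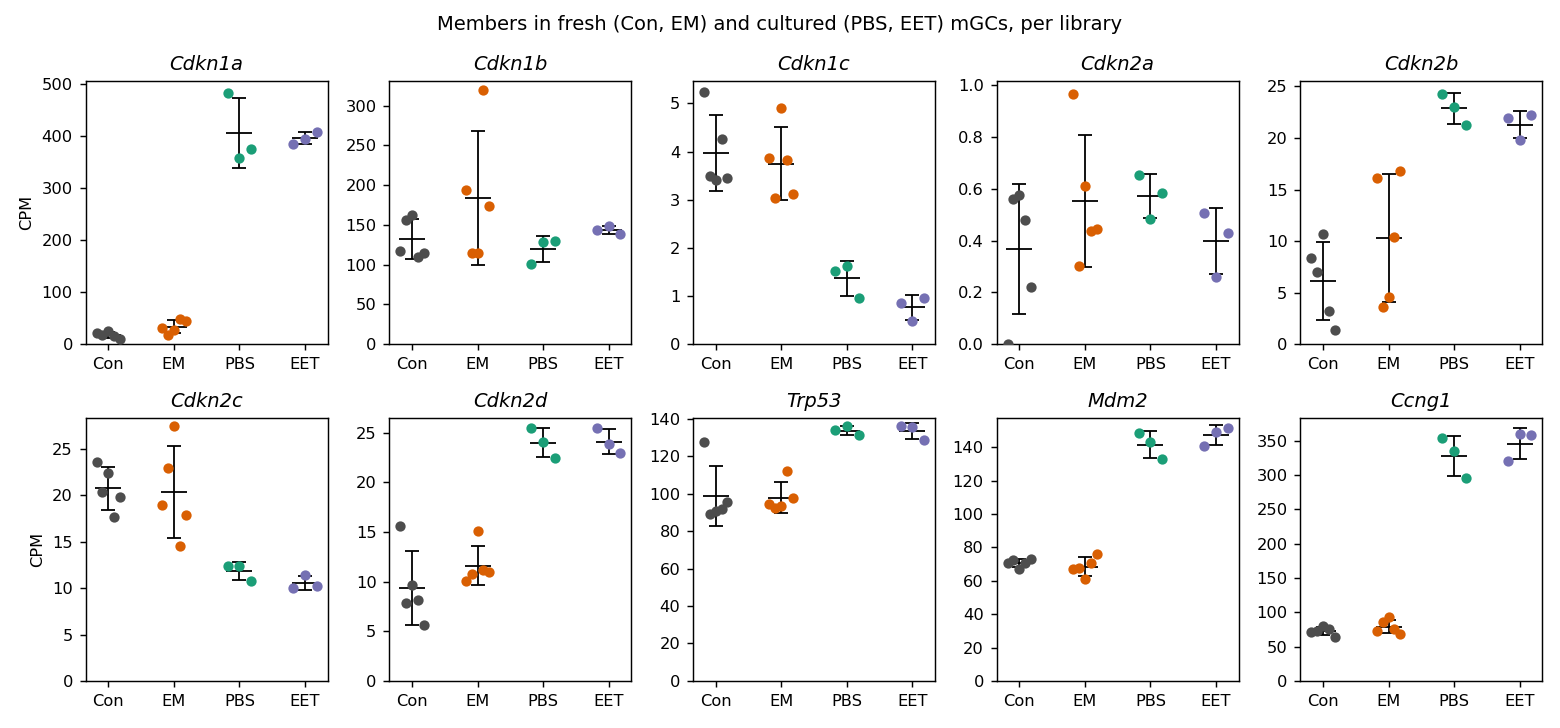
Level of each member in every library, in CPM scaled over all 16 libraries (vertical axes, linear from 0, a range of its own for each gene), for the Con and EM groups (fresh cells, 5 libraries each) and the PBS and EET groups (cultured cells, 3 libraries each); points are libraries, and bars are mean ± SD. Cdkn1a, Ccng1 and Mdm2 sit far higher in all 6 cultured libraries than in all 10 fresh ones, whereas Cdkn1c and Cdkn2c sit lower.

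The first comparison asks how mGCs of the EM model differ from those of sham-operated mice. None of the 9 members tested passed an adjusted p of 0.05 (quasi-likelihood test of edgeR, adjusted after Benjamini and Hochberg over 17229 genes, which called 0 genes, or 0%). Cdkn1a was the only member with an unadjusted p under 0.05, 1 of 9 members, against 9.44% of all genes tested, and DESeq2 also called 0 members. Cdkn2a had too few reads to be tested. For none of the 9 did the groups stand apart without overlap (0 members, against 1.69% of all genes).

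Cdkn1a, the gene of P21, read 23.4, 18.7, 26.6, 17.1 and 9.96 CPM in Con-mGC-1 to Con-mGC-5, on the scale of the fresh libraries. In EM-mGC-1 to EM-mGC-5 it was at 33.4, 19.1, 28.8, 51.9 and 47.4 CPM. All EM libraries but EM-mGC-2 lay above every Con library. On the log2 scale EM-mGCs were higher by 0.92 ± 0.29 (standard error), with a 95% interval from 0.28 to 1.55 (adjusted p = 0.437 from edgeR). Permuting the CPM values over libraries gave a two-sided exact p of 0.0317, where 5 against 5 libraries allow 0.00794 at the least. DESeq2 likewise gave 0.92 (adjusted p = 0.142).

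Cdkn2b, which encodes the INK4 protein p15, ranged as widely within the groups as between them. Its level was 9.01, 7.66, 11.6, 3.51 and 1.49 CPM in the Con libraries and 17.3, 3.94, 4.98, 11.3 and 18.3 CPM in the EM libraries. Con-mGC-5 was the lowest library for both Cdkn2b and Cdkn1a, and the log2 difference of Cdkn2b was 0.75 ± 0.53 (standard error, adjusted p = 0.664 from edgeR).

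Cdkn1b was at 126, 170, 176, 121 and 124 CPM in the Con libraries and at 209, 124, 124, 349 and 189 CPM in the EM libraries. EM-mGC-4 stood well above the others, while EM-mGC-2 and EM-mGC-3 lay within the Con range. The log2 difference was 0.47 ± 0.26 (standard error, adjusted p = 0.576 from edgeR), and it was 0.17 without EM-mGC-4.

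Summed leukocyte markers also differed among these libraries, from 88.5 to 182 CPM in Con-mGCs and from 108 to 257 CPM in EM-mGCs. EM-mGC-4 and EM-mGC-5, the libraries with the most Cdkn1a, had the highest sums, at 254 and 257 CPM, and EM-mGC-2, with the least Cdkn1a of the EM group, had the lowest sum of that group. EM-mGC-3 had a higher sum than EM-mGC-1 (212 and 172 CPM) but less Cdkn1a (28.8 and 33.4 CPM). In the Con group Con-mGC-3 was highest for both. Con-mGC-5, with the least Cdkn1a, had a sum of 106 CPM, above that of Con-mGC-4 at 88.5 CPM. All 10 markers had reads in both groups, and 9 of 10 averaged at least 1 CPM in the EM group. The markers did not differ alike. On the scale of all 16 libraries, S100a9, S100a8, Itgam and Cxcr2 averaged 5.75, 1.73, 5.55 and 0.780 CPM in Con-mGCs. In EM-mGCs they averaged 43.5, 18.7, 18.1 and 4.26 CPM. Ptprc, Cd68, Adgre1 and Csf1r averaged 16.2, 16.8, 12.2 and 41.7 CPM in Con-mGCs. In EM-mGCs these were at 19.3, 21.9, 12.5 and 44.2 CPM, and Cd3e and Cd79a were lower than in Con-mGCs. The part of leukocytes in the Cdkn1a level was not tested.

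**Figure D2:**
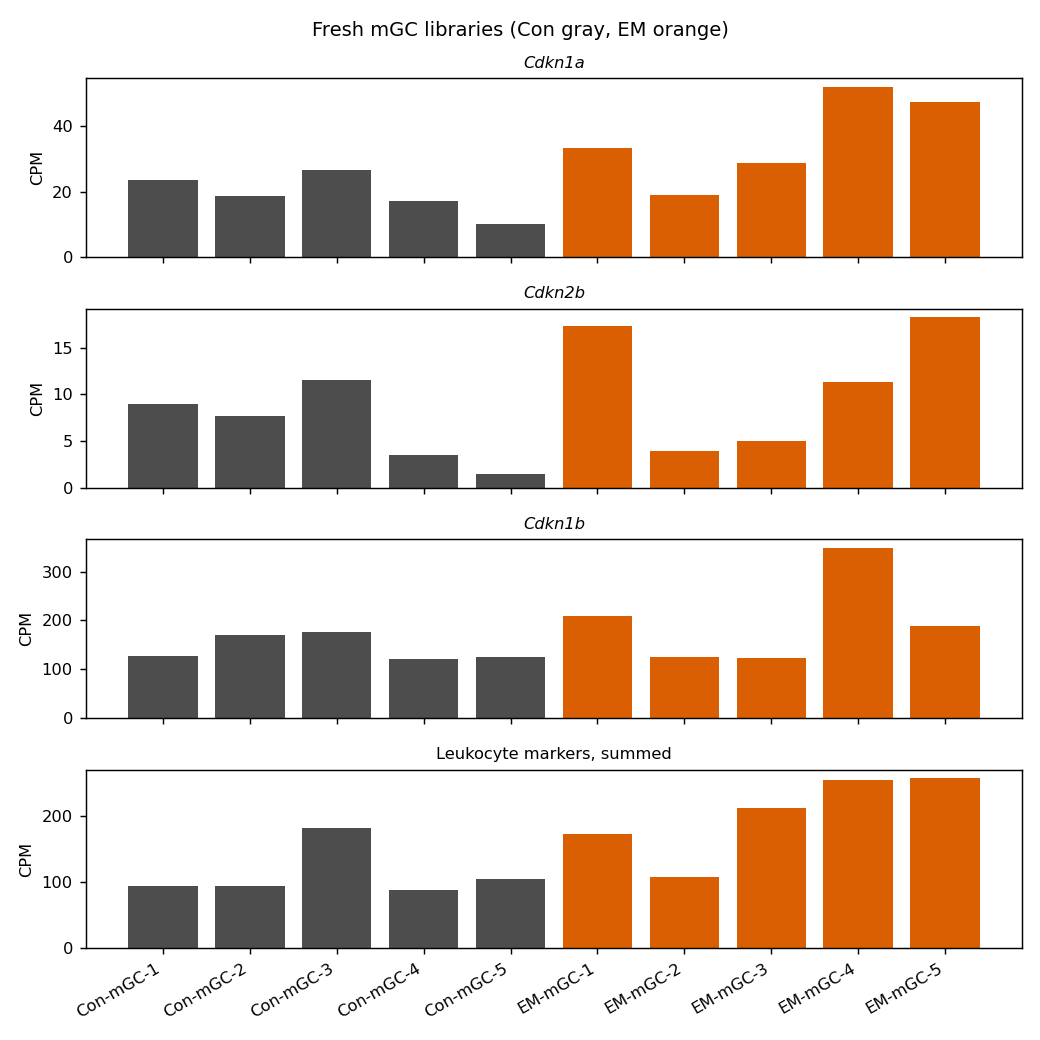
Cdkn1a, Cdkn2b, Cdkn1b and the sum of 10 leukocyte marker genes in each of the 10 fresh libraries, in CPM scaled over the fresh libraries (bars, linear axes from 0), Con in gray and EM in orange. EM-mGC-4 and EM-mGC-5 are highest for Cdkn1a and for the markers, and EM-mGC-1 and EM-mGC-5 for Cdkn2b.

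The p53 part of the axis lay close together in the 2 fresh groups. Trp53 ranged from 97.5 to 138 CPM in Con-mGCs and from 100 to 122 CPM in EM-mGCs, with a log2 difference of -0.02 and a 95% interval from -0.26 to 0.22 (adjusted p = 0.964 from edgeR). Mdm2 averaged 77.0 ± 2.69 CPM in Con-mGCs and 74.2 ± 6.06 CPM in EM-mGCs (SD, n = 5), with an interval of the log2 fold change from -0.23 to 0.12. Ccng1, which encodes cyclin G1, was at 79.4 ± 6.07 and 85.8 ± 10.7 CPM, with an interval from -0.11 to 0.33. The intervals of these 3 genes leave room for small differences only, the largest bound being 1.26-fold, for Ccng1.

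The other inhibitors gave no call either. Cdkn2d, which encodes p19 of the INK4 family, averaged 10.2 ± 4.04 CPM in Con-mGCs and 12.6 ± 2.16 CPM in EM-mGCs (log2 fold change 0.31 ± 0.24, standard error). Con-mGC-1 was at 16.8 CPM, the other Con libraries at 6.09 to 10.4 CPM and the EM libraries at 10.9 to 16.3 CPM. With a library left out, the log2 fold change of Cdkn2d ran from 0.17 (without Con-mGC-5) to 0.57 (without Con-mGC-1, adjusted p = 0.384 from edgeR). Cdkn2c, which encodes p18, was at 22.6 ± 2.35 and 22.1 ± 5.36 CPM, and Cdkn1c at 4.32 ± 0.854 and 4.06 ± 0.814 CPM, with log2 fold changes of -0.03 and -0.09. Over the 9 members tested the median log2 fold change was 0.11, against -0.01 over all genes tested.

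Around the members, 98 other genes of the pathway were listed, and 0 of them passed the adjusted p in EM-mGCs. Of 33 p53 target genes, 19 had a positive and 14 a negative log2 fold change, with a median of 0.07. Of all genes tested, 8296 had a positive and 8933 a negative one. An unadjusted p under 0.05 was found for 4 of the 33, against 9.44% of all genes tested. Btg2, a p53 target that restrains proliferation, had the highest log2 fold change, with 47.6 ± 12.2 CPM in Con-mGCs and 106 ± 72.5 CPM in EM-mGCs, where libraries ran from 50.5 to 231 CPM (1.15, adjusted p = 0.433 from edgeR). Psrc1 was the lowest of them at -0.25.

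Of 23 p53 regulators and relatives, 17 had a negative log2 fold change, against 8933 of all 17229 genes tested, and the list median was -0.09. Among those with an average of at least 1 log2 CPM, Ccng2 (cyclin G2) was highest at 0.31 and Trp63 lowest at -0.49. Trp73, below that level, was at -0.98. The 25 cyclins, CDKs, pocket proteins and E2F factors lay between E2f5 at -0.24 and Cdk6 at 0.34 among those with at least 1 log2 CPM, with a median of -0.02. Of 17 regulators of the inhibitors, Id1 was highest at 0.41 and Tbx2, a repressor of inhibitor genes, lowest at -0.33, with a median of -0.03.

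The second comparison asks what 14, 15-EET does to cultured mGCs of the EM model. None of the 10 members passed the adjusted p (0 members, where edgeR called 1.22% of 15050 genes), and DESeq2 called 0 members as well. At an unadjusted p under 0.05 there were 2 members, Cdkn1b and Cdkn1c, against 12.4% of all genes. The median log2 fold change of the members was -0.01, against 0.00107 over all genes tested.

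Cdkn1a was at 420, 314 and 325 CPM in PBS-1, PBS-2 and PBS-3 and at 334, 347 and 356 CPM in EET-1, EET-2 and EET-3, on the scale of the cultured libraries. The EET libraries all fell inside the range of the PBS libraries, of which PBS-1 was the highest. The log2 difference was -0.03 with a 95% interval from -0.22 to 0.17, that is from 0.856-fold to 1.12-fold (adjusted p = 0.931 from edgeR). It turned to 0.12 without PBS-1 (adjusted p = 0.320 from edgeR).

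Cdkn1b was at 87.7, 112 and 112 CPM in the PBS libraries and at 125, 130 and 121 CPM in the EET libraries. Every EET library lay above every PBS library, which held for 8.48% of all genes (17.6% with either direction), and PBS-1 was the lowest. On the log2 scale EET was higher by 0.27 ± 0.08 (standard error), with an interval from 0.09 to 0.45 (adjusted p = 0.162 from edgeR). It was 0.17 without PBS-1 (adjusted p = 0.132 from edgeR), and the exact permutation test gave p = 0.1, the smallest that 3 against 3 libraries allow. DESeq2 gave an adjusted p of 0.0506, and edgeR without a filter on low counts gave 0.000415. With libraries of equal number taken as partners, a replicate block in edgeR gave 0.28 (adjusted p = 0.0484). The call of Cdkn1b thus depended on the filter for low counts and on taking equal numbers as pairs.

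Cdkn1c, the imprinted gene of P57, was at 1.33, 1.42 and 0.827 CPM in the PBS libraries and at 0.748, 0.419 and 0.837 CPM in the EET libraries, from 11 to 37 reads each. The groups overlapped at PBS-3 and EET-3, and the log2 difference was -0.82 ± 0.33 (standard error, adjusted p = 0.329 from edgeR). Cdkn2a rested on 6 to 14 reads per library, with a log2 fold change of -0.49 and an interval from -1.31 to 0.33, so that a difference was not detectable at this depth.

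The p53 part of the axis differed little between the cultured groups. Trp53 was at 116, 119 and 114 CPM in the PBS libraries and 118, 119 and 113 CPM in the EET libraries, a log2 fold change of 0.00491 with an interval from -0.10 to 0.11. Mdm2 was at 123 ± 7.31 CPM in the PBS group and 129 ± 5.64 CPM in the EET group (SD, n = 3), with an interval of the log2 fold change from -0.06 to 0.18. Ccng1 was at 285 ± 26.9 and 302 ± 21.04 CPM, with an interval from -0.07 to 0.24. The INK4 genes Cdkn2b, Cdkn2c and Cdkn2d had log2 fold changes of -0.09, -0.16 and 0.01, all with overlapping groups.

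No gene of the 4 pathway lists was called after 14, 15-EET (0 of 97 tested, edgeR). Of these 97 genes, 13 had an unadjusted p under 0.05, near the share of 12.4% over all genes tested. DESeq2 called 1 of the 33 p53 target genes. Among the p53 targets, 10 were higher and 23 lower in the EET group (median log2 fold change -0.03). Of all genes tested, 7585 were higher and 7465 lower. Plk2, a polo-like kinase, was lowest, at 43.3 ± 5.22 CPM in the PBS group and 34.2 ± 3.17 CPM in the EET group (log2 fold change -0.34, adjusted p = 0.113 from edgeR), and Dram1, a gene of autophagy, highest at 0.19.

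Among the p53 regulators with an average of at least 1 log2 CPM, the deacetylase gene Sirt1 was highest at 0.24 and Trp53bp2 lowest at -0.07. Below that level Trp63 was at -0.62 (adjusted p = 0.487 from edgeR), with groups that did not overlap but at most 0.971 CPM in any library. With the same limit, the lists of cyclins and CDKs and of regulators of the inhibitors ran from E2f7 at -0.23 to Cdk6 at 0.15 and from Foxo1 at -0.32 to Suz12, of the polycomb complex, at 0.21, while Tbx2, below it, was at 0.33. Their medians were -0.04 and 0.00930, and that of the p53 regulators was 0.04.

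**Figure D3:**
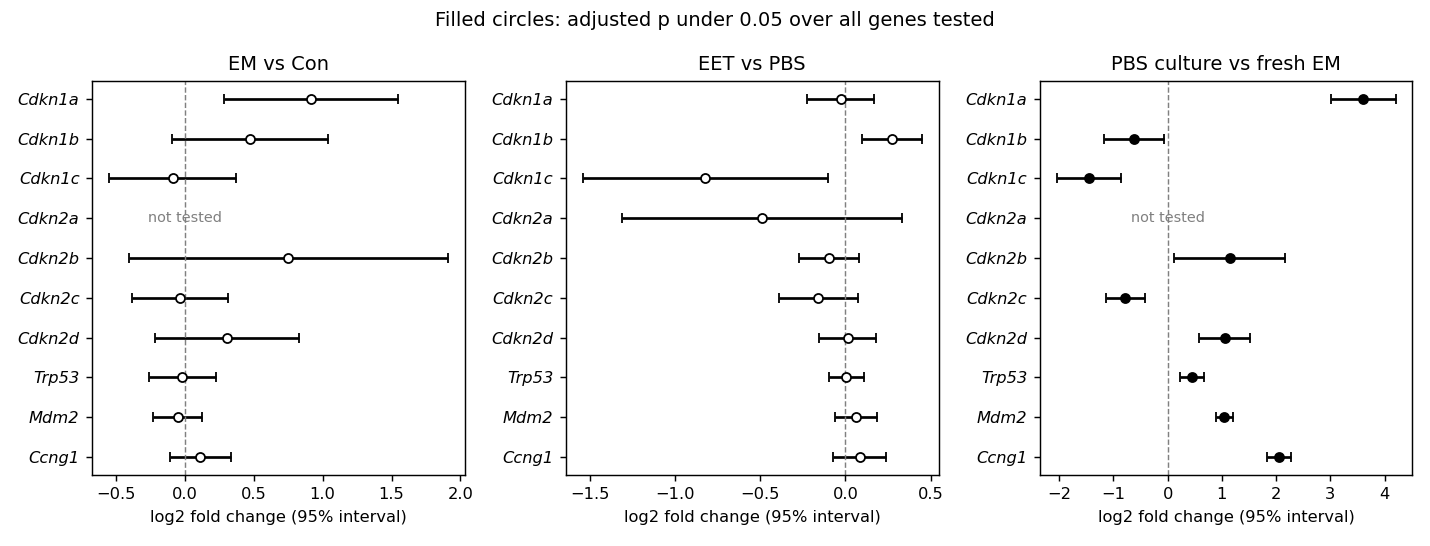
Log2 fold change of each member (horizontal axes) with its 95% interval from edgeR, for EM against Con, EET against PBS, and cultured PBS against fresh EM; filled circles passed an adjusted p of 0.05 over all genes tested. No circle is filled for the first 2 comparisons, and all 9 members tested are filled for the third, from Cdkn1c at -1.45 to Cdkn1a at 3.61.

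The third comparison sets the PBS group beside the fresh EM group, both from mice of the EM model, in 1 fit over all 16 libraries. Culture, experiment, sequencing run and cell composition cannot be told apart here, and edgeR called 71.7% of 18484 genes, 31.7% higher and 40.0% lower in the PBS group. All 9 members tested were called, 6 higher and 3 lower, which with such a background says little by its count, so the sizes are given. The groups did not overlap for 8 members, 6 higher and 2 lower in the PBS group, against 65.3% of all genes (30.4% higher and 34.9% lower). Cdkn2a, at 0.573 ± 0.0862 CPM in the PBS group and 0.553 ± 0.257 CPM in the EM group, had too few reads to be tested. The median log2 fold change of all genes tested was -0.16, and with library totals in place of TMM scaling, an alternative chosen after seeing the data, it was -0.44.

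The 3 p53 target genes among the members were all higher in culture. Cdkn1a rose from 33.3 ± 12.4 CPM (SD, n = 5) in the EM group to 405 ± 67.4 CPM (SD, n = 3) in the PBS group, a 12.2-fold difference with a 95% interval from 8.05-fold to 18.4-fold (log2 fold change 3.61, standard error 0.28, adjusted p = 9.18e-09 from edgeR). Only 1.07% of the genes tested had a higher log2 fold change. The value ran from 3.44 to 3.77 with each library left out, and was 3.32 with library totals.

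Ccng1 rose from 79.1 ± 9.91 to 328 ± 29.6 CPM, a 4.14-fold difference with an interval from 3.55-fold to 4.83-fold (adjusted p = 6.05e-11 from edgeR). Mdm2 rose from 68.4 ± 5.49 to 142 ± 7.83 CPM, 2.07-fold with an interval from 1.85-fold to 2.31-fold (adjusted p = 4.05e-09 from edgeR). For each of these genes every PBS library lay above every EM library.

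Trp53 itself moved less. It was at 98.0 ± 8.08 CPM in the EM group and 134 ± 2.34 CPM in the PBS group, with groups that did not overlap and a log2 difference of 0.45 ± 0.11 (standard error, adjusted p = 0.00131 from edgeR). With library totals the value was 0.17 and no longer called (adjusted p = 0.181 from edgeR).

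The INK4 genes moved in different directions. Cdkn2d rose from 11.6 ± 1.99 to 24.0 ± 1.502 CPM (log2 fold change 1.05, adjusted p = 0.000481 from edgeR). Cdkn2b was at 10.3 ± 6.18 CPM in the EM group and 22.9 ± 1.51 CPM in the PBS group (log2 fold change 1.15, adjusted p = 0.0436 from edgeR), a call lost with DESeq2 (adjusted p = 0.0903), with RLE size factors (adjusted p = 0.0528 from edgeR) and with library totals (adjusted p = 0.138 from edgeR). It was also lost without EM-mGC-2, EM-mGC-3, EM-mGC-4 or any of the PBS libraries. Cdkn2c fell from 20.4 ± 4.97 to 11.9 ± 0.978 CPM (log2 fold change -0.78, adjusted p = 0.000648 from edgeR), with groups that did not overlap.

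Among the other CIP/KIP genes, Cdkn1c fell from 3.75 ± 0.753 to 1.37 ± 0.360 CPM (log2 fold change -1.45, adjusted p = 0.000216 from edgeR). Cdkn1b was at 183 ± 84.2 CPM in the EM group and 119 ± 16.1 CPM in the PBS group, with groups that overlapped (log2 fold change -0.62, adjusted p = 0.0445 from edgeR). Without EM-mGC-4, the library with the most Cdkn1b, its log2 fold change was -0.32 (adjusted p = 0.138 from edgeR), and the call was also lost without EM-mGC-1, EM-mGC-5 or any of the PBS libraries and in a fit of only these 2 groups. The CIP/KIP genes of P21 and P57 thus moved in opposite directions with both TMM scaling and library totals.

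Markers of other cells moved with this comparison. Summed red blood cell markers were at 2230 to 14553 CPM in the EM group and at most 0.327 CPM in the PBS group, oocyte markers at 87.1 to 691 and at most 1.36 CPM, and leukocyte markers at 99.5 to 237 and at most 11.9 CPM. Endothelial markers were at 72.4 to 127 CPM and at most 4.96 CPM, and stromal and smooth muscle markers at 176 to 443 and 562 to 757 CPM. The higher sum in the PBS group was that of Acta2 alone, at 624.7 CPM on average against 131 CPM in the EM group, and the other 5 genes of that list were lower, such as Dcn at 1.63 against 106 CPM and Pdgfra at 2.63 against 23.7 CPM. Surface epithelial markers were at 65.5 to 209 CPM in the EM group and at most 4.64 CPM in the PBS group. Luteal markers were at 5805 to 7448 and 2711 to 3346 CPM, with Lhcgr at 825 against 0.331 CPM on average. Theca markers were at 4611 to 9230 and 8622 to 9930 CPM. Of these, Cyp17a1 averaged 207 CPM in the EM group and 0.0364 CPM in the PBS group, and Aldh1a1 432 and 3891 CPM. The part of other cells in the values of the members was not tested.

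Of the 33 p53 target genes on the fixed list, 20 rose, 4 fell and 9 were not called in the PBS group (median log2 fold change 0.84). Over all genes tested, 71.7% were called, 31.7% higher and 40.0% lower in the PBS group, with a median of -0.16. The largest rises were those of Epha2, an ephrin receptor, from 7.66 ± 3.46 to 543 ± 147 CPM (log2 fold change 6.14), and of Gdf15, a stress-induced cytokine, from 1.18 ± 0.392 to 52.98 ± 12.8 CPM (log2 fold change 5.49). The 4 that fell were Pmaip1, which encodes the pro-apoptotic NOXA (-2.62), the death receptor gene Fas (-1.89, with at most 2.79 CPM in any library of either group), Ddb2, of DNA damage recognition (-1.34), and Sesn1, a sestrin gene (-0.66), so the p53 targets did not all move one way.

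Of the 23 p53 regulators and relatives, 6 rose and 11 fell, against 31.7% and 40.0% of all genes tested. Their median log2 fold change was -0.21. Mdm4, whose product binds p53 beside MDM2, fell from 283 ± 41.3 to 78.0 ± 9.08 CPM (log2 fold change -1.86, adjusted p = 1.14e-08 from edgeR), opposite to Mdm2. Chek1, a checkpoint kinase gene, fell by 1.97 on the log2 scale. Ppp1r13l, the gene of the p53 inhibitor iASPP, rose by 2.30 and Hipk2, a kinase of p53, by 1.39.

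Of the 25 cyclins, CDKs, pocket proteins and E2F factors, 12 rose and 4 fell, with a median of 0.23. Over all genes tested, 71.7% were called, 31.7% higher and 40.0% lower. Ccnd2, the D-type cyclin gene known for driving granulosa proliferation, rose from 197 ± 50.5 to 801 ± 96.2 CPM (log2 fold change 2.02), and Ccnd1 rose by 1.58, whereas Cdk6 (-1.83) and E2f5 (-1.64) fell. Cdkn1a and Ccnd2 thus rose together in the same libraries. Of the 17 regulators of the inhibitors, 6 rose and 5 fell, against the same shares of all genes, with a median of -0.09. The largest rises were those of Id1 (2.42) and Myc (1.84) and the largest falls those of Tbx2 (-3.83) and Foxo1 (-1.41).

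**Figure D4:**
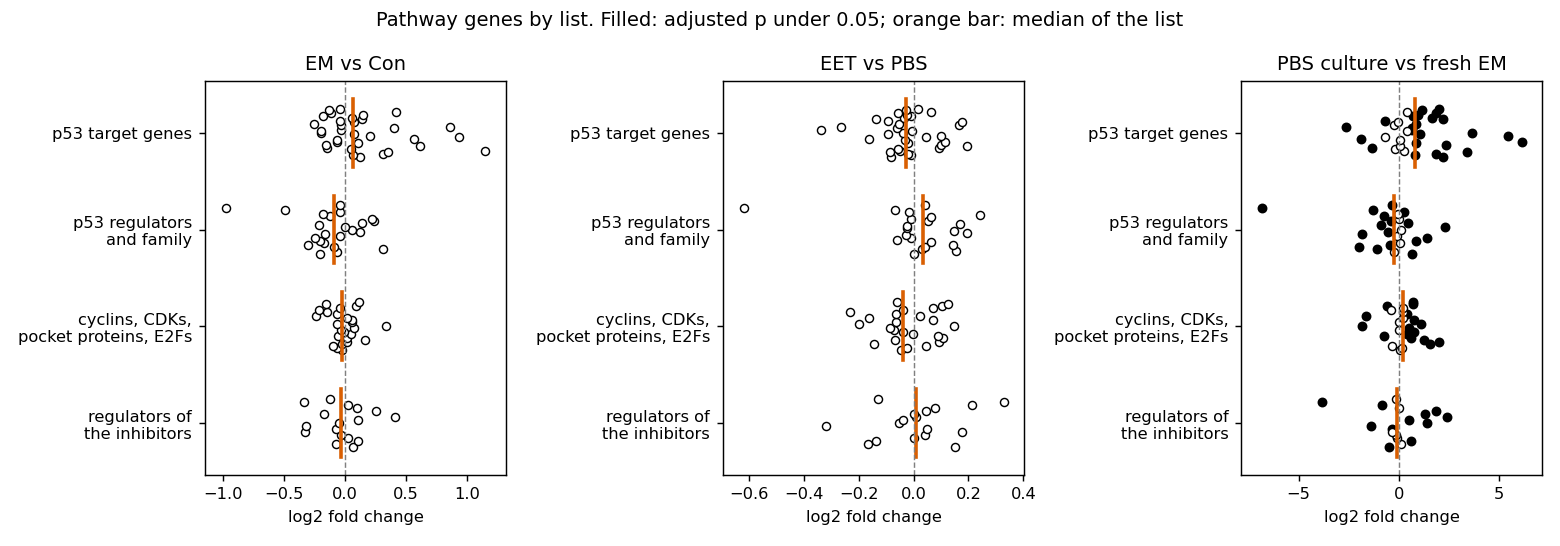
Log2 fold change (horizontal axes) of each tested gene of the 4 pathway lists in the 3 comparisons; filled circles passed an adjusted p of 0.05 over all genes tested, and orange bars are list medians. Only the comparison of cultured with fresh cells has filled circles, and there the p53 target genes have the highest list median, at 0.84.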

How the data were processed

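The authors deposited 2 tables of raw read counts per Ensembl gene from polyA libraries of mGCs, counted with featureCounts. The submitters' processing notes name fastp, HISAT2, StringTie and GRCm39 without versions, and whether featureCounts used strand or kept multiply mapped reads is not given in the sources used here. Genes of the opposite strand overlap Cdkn1a, Cdkn1c, Cdkn2b, Cdkn2c and Trp53, with at most 64 reads in any library. No per-sample column was left unused (0 columns).

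Counts were analysed in R 4.3.3 with edgeR 4.0.16 (filterByExpr, TMM, quasi-likelihood test, Benjamini-Hochberg over all genes tested, called at 0.05), the fresh and the cultured table in separate fits and all 16 libraries in another. DESeq2 1.42.0, RLE size factors, library totals, no filter, a replicate block and leaving out each library were the alternatives. Standard errors are the log2 fold change over the root of F. Exon length is from GENCODE M21 (GRCm38). The tests were checked on simulated counts.

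Groups follow the labels. Named are the members and, per list and comparison, the 2 called genes that rose and fell most, or else the highest and lowest, among genes whose average log2 CPM was 1 or more. Members and lists were chosen with earlier results of these data known. Deviations of same-numbered cultured libraries correlated at -0.0237 to 0.0980. Differently numbered libraries were not correlated, so these values cannot decide whether equal numbers mark pairs. All libraries of a group differed beyond sampling noise (chi-square over its degrees of freedom between 2.79 and 128).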

Additional observations from a re-analysis of the deposited data

Results flagged for a closer look

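In 3 of 20 groups of 5 fresh libraries, 1 library stood apart from the other 4 by Dixon's test, where chance gives about 1 in 20 groups. Trp53 was at 138 CPM in Con-mGC-1, with the next Con library at 104 CPM. Trp53 was at 122 CPM in EM-mGC-4, with the next EM library at 106 CPM. Cdkn2d was at 16.3 CPM in EM-mGC-3, the library with 21.85% mitochondrial reads, with the next EM library at 12.1 CPM.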

How the results depend on the processing

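With EM against Con, 0 members were called under every alternative run, while the number of called genes went from 0 to 116 with DESeq2, 4 without a filter on low counts and 2 with the replicate block, and to between 0 and 46 with a library left out, the highest without Con-mGC-3. With EET against PBS, the number of called genes went from 184 to 323 with DESeq2, 662 without a filter and 341 with the replicate block, and to between 48 (without EET-3) and 436 (without PBS-2) with a library left out. The only member called there was Cdkn1b, so that 1 member was called without a filter and 1 with the replicate block, where its log2 fold change was 0.28 (adjusted p = 0.0484 from edgeR). The methods call these replicates paired without tying the pairs to the numbers, and the correlations of deviations cannot decide whether equal numbers mark pairs. No paired analysis was possible because the fresh and the cultured libraries come from different mice for the third comparison. Of the p53 targets, 0 to 2 were called for EET against PBS over all alternatives. In the third comparison, called members numbered 7 to 9 under the alternatives, and 31.5% of called genes were higher with library totals, against 44.2% with TMM.

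Directions turned in these members when a library was left out, none of them called. With EM against Con, Cdkn1c ran from -0.20 to 0.0329, Cdkn2c from -0.17 to 0.0638 and Trp53 from -0.0743 to 0.0921. With EET against PBS, Cdkn1a ran from -0.11 to 0.12, Cdkn2d from -0.0370 to 0.0586 and Trp53 from -0.0132 to 0.0284. The cause of these shifts was not tested. The depth limits Cdkn2a and Cdkn1c, with at most 15 and 86 reads per library, and 3 or 5 libraries per group set the width of all intervals.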

Other observations

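The genes whose level followed that of a member most closely over the 10 fresh libraries were found by the root mean square difference of centred log2 CPM among 10236 other protein-coding genes with a mean of at least 10 CPM. For Cdkn1a these were Usp43, Tlcd4 and Mbp, with differences of 0.239, 0.246 and 0.247 log2 units, where the median gene lay 0.704 away. For Trp53 they were Sirt2 (0.0331), Csnk1e (0.0404) and Snx15 (0.0423), and for Mdm2 they were Kdm1a (0.0383), Ambra1 (0.0463) and Agap3 (0.0466). Trp53 and Mdm2 themselves varied little over these libraries, with SDs of 0.15 and 0.09 log2 units, against 0.67 for Cdkn1a.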
